A study of Mus musculus with 10 samples.

Results

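A list of 45 imprinted genes was followed through 10 RNA-seq libraries of mouse embryonic stem cells, out of 30460 genes in the deposited tables. The members were taken by name from a list of genes known to be imprinted in the mouse. No value enters the rule, but the list was drawn up with earlier results of these data known. They lie in 23 imprinted regions on 13 chromosomes, and 17 of them are on chromosome 7. By the copy reported to be active, 15 are maternally expressed, 24 are paternally expressed, and 6 (Grb10, Ube3a, Gnas, Commd1, Trappc9 and Inpp5f) depend on tissue or transcript. The libraries carry no information on alleles, so the parental copies could not be told apart, and every value is the sum of both.

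All cells were C57BL/6 embryonic stem cells, grown from the early embryo's pluripotent cells. Wild type cells gave 3 libraries. The knockouts (Mga-/-, L3mbtl2-/- and Pcgf6-/-) gave 3, 2 and 2, and each lacks a different subunit of the same complex by its label. Depth lay between 19370027 and 26726639 recovered reads per library. The sources used here do not say whether replicates came from separate clones or cultures. The p-values therefore reflect the spread among these libraries alone, and that spread may be technical. Values are FPKM, fragments scaled by gene length and sequencing depth, so levels of different genes can be compared. Library values are given below in the order of replicates 1, 2 and 3.

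The targeted genes were checked first. L3mbtl2 stood at 18.4% and 17.3% of its wild type mean in the L3mbtl2 knockout libraries, and Pcgf6 stood at 33.1% and 34% in the Pcgf6 knockout libraries. Mga stood at 43.5%, 106% and 60.5% of its wild type mean in the libraries labelled Mga knockout, so the library labelled Mga knockout replicate 2 held Mga at the wild type level and goes against its label as far as this RNA shows. A mutation can leave transcript in place, and the sources used here do not say which part of the gene was removed. Changes named below for imprinted genes in Mga knockout cells are also given with it left out, while sums and counts of marker genes are given with it.

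Imprinted genes are transcribed mainly from a single parental copy. A stretch of DNA that is methylated in the egg or the sperm, the imprinting control region, keeps the parental copies apart, often through a long noncoding RNA or a boundary bound by CTCF. A smaller class, called noncanonical, is marked in the egg by H3K27 methylation in place of DNA methylation and is best known from the placenta. MGA, L3MBTL2 and PCGF6 belong to the Polycomb complex PRC1.6, which silences germ cell genes in embryonic stem cells. MGA binds DNA with its partner MAX, L3MBTL2 carries MBT repeats, and PCGF6 is the partner of the RING1 family of ubiquitin ligases.

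Promoter sequence is shown for 3 members whose RNA moved with the knockouts. It covers the 250 bases before the RefSeq start on GRCm38.p6, read 5′ to 3′ on the gene's own strand. RefSeq gave a promoter for 38 of the 45 members. In Igf2r (chr17:12769707-12769956, minus strand), the only listed gene called higher in all 3 knockouts (a call that in Mga knockout cells did not hold in most alternatives), the capitals mark CACGTG, the E-box that MAX and its partners bind. In Peg3 (chr7:6730420-6730669, minus strand) and Nnat (chr2:157559828-157560077, plus strand), which were both lower in Mga and L3mbtl2 knockouts, the capitals mark CG, the dinucleotide that carries DNA methylation.
Igf2r: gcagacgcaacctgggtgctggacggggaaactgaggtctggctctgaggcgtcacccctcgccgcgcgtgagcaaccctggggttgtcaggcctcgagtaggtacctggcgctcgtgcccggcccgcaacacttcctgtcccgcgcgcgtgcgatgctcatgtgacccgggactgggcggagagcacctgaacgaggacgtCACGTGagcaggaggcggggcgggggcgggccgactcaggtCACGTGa
Peg3: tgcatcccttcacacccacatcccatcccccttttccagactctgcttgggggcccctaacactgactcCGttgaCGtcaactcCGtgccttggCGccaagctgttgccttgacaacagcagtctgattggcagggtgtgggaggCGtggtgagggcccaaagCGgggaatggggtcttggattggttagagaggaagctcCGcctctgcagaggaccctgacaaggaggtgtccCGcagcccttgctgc
Nnat: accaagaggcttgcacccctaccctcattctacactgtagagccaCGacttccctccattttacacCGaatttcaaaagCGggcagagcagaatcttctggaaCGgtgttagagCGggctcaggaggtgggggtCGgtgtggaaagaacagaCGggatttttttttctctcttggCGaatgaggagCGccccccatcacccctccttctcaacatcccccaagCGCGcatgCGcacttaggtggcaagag

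The motif CACGTG, which reads the same on both strands, was present in the promoters of 4 of the 38 members (Ppp1r9a, Plagl1, Igf2r and Jade1) and of 8.09% of all 27025 genes with a promoter, in windows of 300 bases from 250 before to 50 after the start. Igf2r held 2 copies. The letters TGCCGC, to which the imprint-keeping zinc finger protein ZFP57 binds when they are methylated, were present on either strand in 12 of 38 members and in 13.1% of all genes. The E2F motif GCGGGAA was present in 2 members against 5.29% of all genes, and the T-box motif AGGTGTGA, relevant because MGA also has a T-box domain, in 1 member (Meg3) against 1.48%. The windows held 34 CG dinucleotides in Igf2r, 13 in Peg3 and 17 in Nnat, against a median of 7 over all promoters. Peg3 and Usp29 are read away from each other from starts 164 bases apart, so their windows share 263 of 300 bases. A match describes letters in the window and is not a measured binding site.

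In wild type cells 16 members stood over 10 FPKM, 17 lay from 1 to 10 and 12 were under 1. Phlda2, a placental growth inhibitor, was the highest at 162 ± 2.24 FPKM (SD, n = 3), followed by the signalling adaptor Gab1 at 75 ± 1.67 and the tetraspanin Cd81 at 58.6 ± 0.489. Jade1, a subunit of a histone acetyltransferase complex, and the retrotransposon-derived Peg10 came next at 46.3 ± 1.31 and 44.2 ± 2.74 FPKM and did not differ beyond their spread. Igf2, the fetal growth factor, stood at 39.2 ± 0.375 and the amino acid transporter Slc38a4 at 36.5 ± 0.919. Gnas, which encodes a G protein subunit and several nested transcripts, was listed at only 0.202 ± 0.0506 FPKM. Its exons share 988 bases with the antisense Nespas and 1469 with Gm20721, and the sources used here do not say how reads of overlapping genes were assigned. The library kit does not mark strand, so reads of overlapping genes on opposite strands could not be told apart.

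A gene was tested where it reached 0.5 FPKM in at least 2 libraries, which held for 38 of the 45 members and 15731 genes in all. A gene is called higher or lower where limma's adjusted p over all tested genes was under 0.05. Fold changes are on the log2(FPKM + 0.1) scale with their standard error. The 3 comparisons with wild type share the wild type libraries and 1 estimate of spread, so their calls are not independent of each other. In bulk RNA, fewer cells of a type and less RNA per cell cannot be told apart.

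Against wild type, 13 of 38 tested members (34.2%) passed in Mga knockout cells, 4 higher and 9 lower, beside a background of 39.5% of all tested genes (22.8% higher, 16.7% lower). In L3mbtl2 knockout cells 16 members (42.1%) passed, 6 higher and 10 lower, beside a background of 40.0% (23.4% higher, 16.7% lower). In Pcgf6 knockout cells 8 members (21.1%) passed, 4 higher and 4 lower, beside a background of 10.1% (5.45% higher, 4.62% lower). The share of members called was near the background in Mga and L3mbtl2 knockout cells. Members called lower made up 23.7% and 26.3% of those tested there, beside the 16.7% of all genes, and this difference was not tested. The median log2 fold change of the tested members was -0.12, -0.41 and -0.12 in Mga, L3mbtl2 and Pcgf6 knockout cells, and that of all tested genes 0.10, 0.13 and 0.04. When the library labelled Mga knockout replicate 2 was left out, 23 members passed in Mga knockout cells (10 higher, 13 lower), 26 in L3mbtl2 (7 higher, 19 lower) and 15 in Pcgf6 knockout cells (9 higher, 6 lower), the last 2 because all groups share 1 estimate of spread. That fit called 55.1%, 54.2% and 25.2% of all tested genes in the same comparisons, so the rise was not limited to the members. Some L3mbtl2 and Pcgf6 knockout changes given below as missing the threshold passed in it. Among them were Snrpn and Meg3 in L3mbtl2 and Phlda2, Plagl1 and Peg13 in Pcgf6 knockout cells. Without an L3mbtl2 knockout library the L3mbtl2 count fell to 7 or 8 (18.7% or 20.4% of all tested genes), and the Pcgf6 count fell to 1 without a Pcgf6 knockout library (1.16% or 0.998% of all tested genes) and to 2 or 3 without a wild type library (3.22% to 3.92%).

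Only 3 members passed in all 3 comparisons with wild type: Igf2 and Sfmbt2 were lower and Igf2r was higher. Of the rest of the tested members, 9 passed in 2 comparisons, 10 in 1 and 16 in none. The same split of all tested genes was not counted, so these numbers describe the members alone. The heatmap of the members shows how uneven the Mga knockout libraries were beside the other groups.

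**Figure D1:**
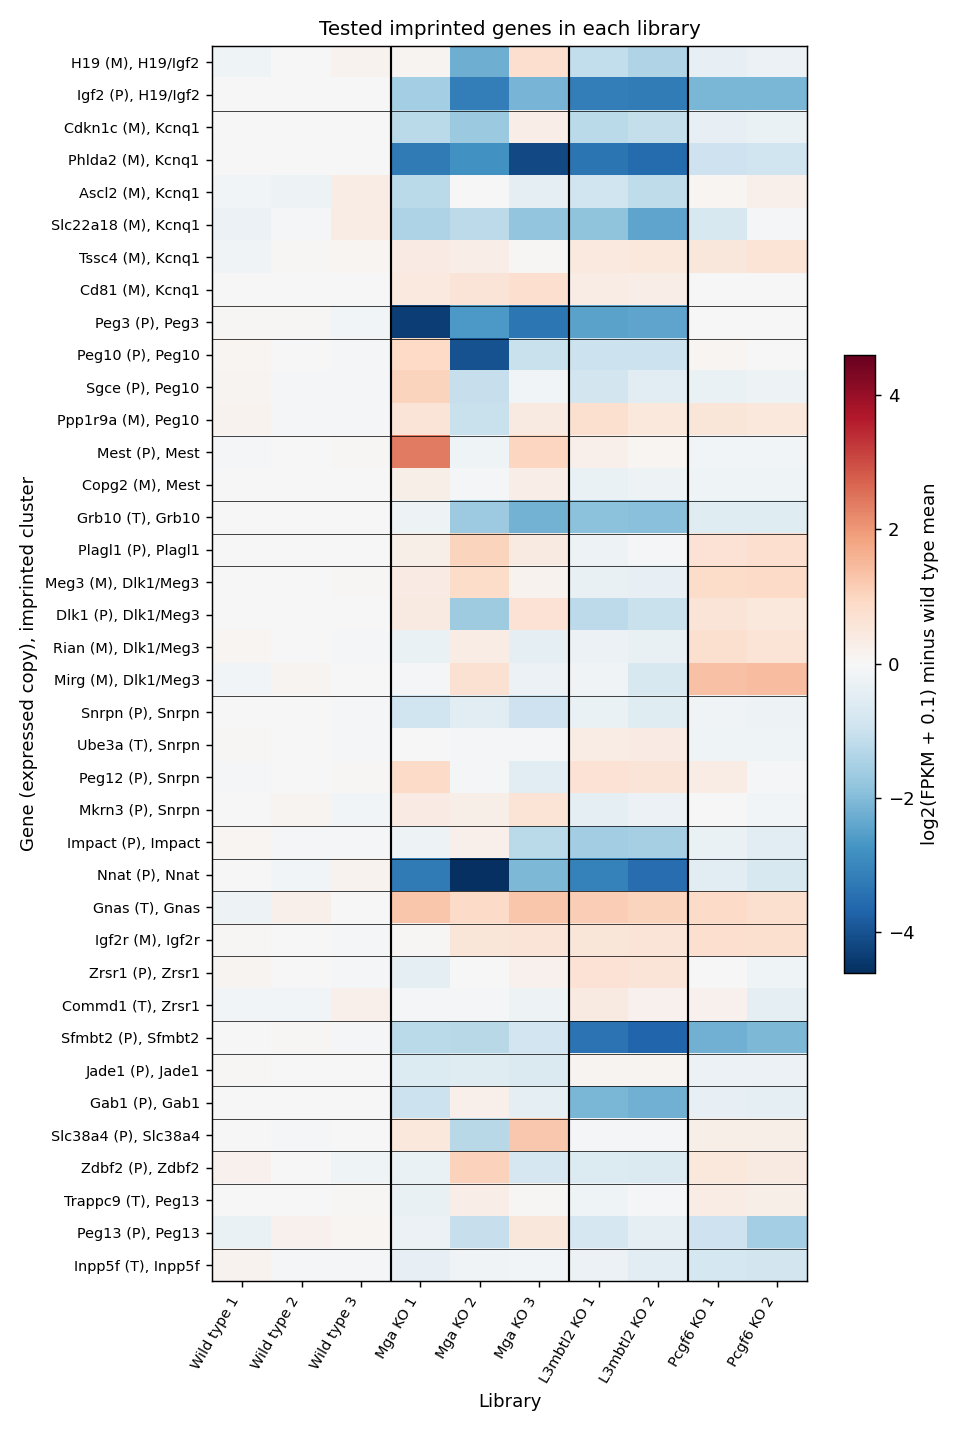
Heatmap of log2(FPKM + 0.1) minus the wild type mean (colour scale) for the 38 tested imprinted genes (vertical axis, with the reported active copy as M, P or T for tissue- or transcript-dependent, and the imprinted cluster) in the 10 libraries (horizontal axis). Igf2, Phlda2, Peg3, Nnat and Sfmbt2 are blue in all 5 Mga and L3mbtl2 knockout libraries, whereas Peg10, Mest, Dlk1 and Slc38a4 differ in sign among the 3 Mga knockout libraries.

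**Figure D2:**
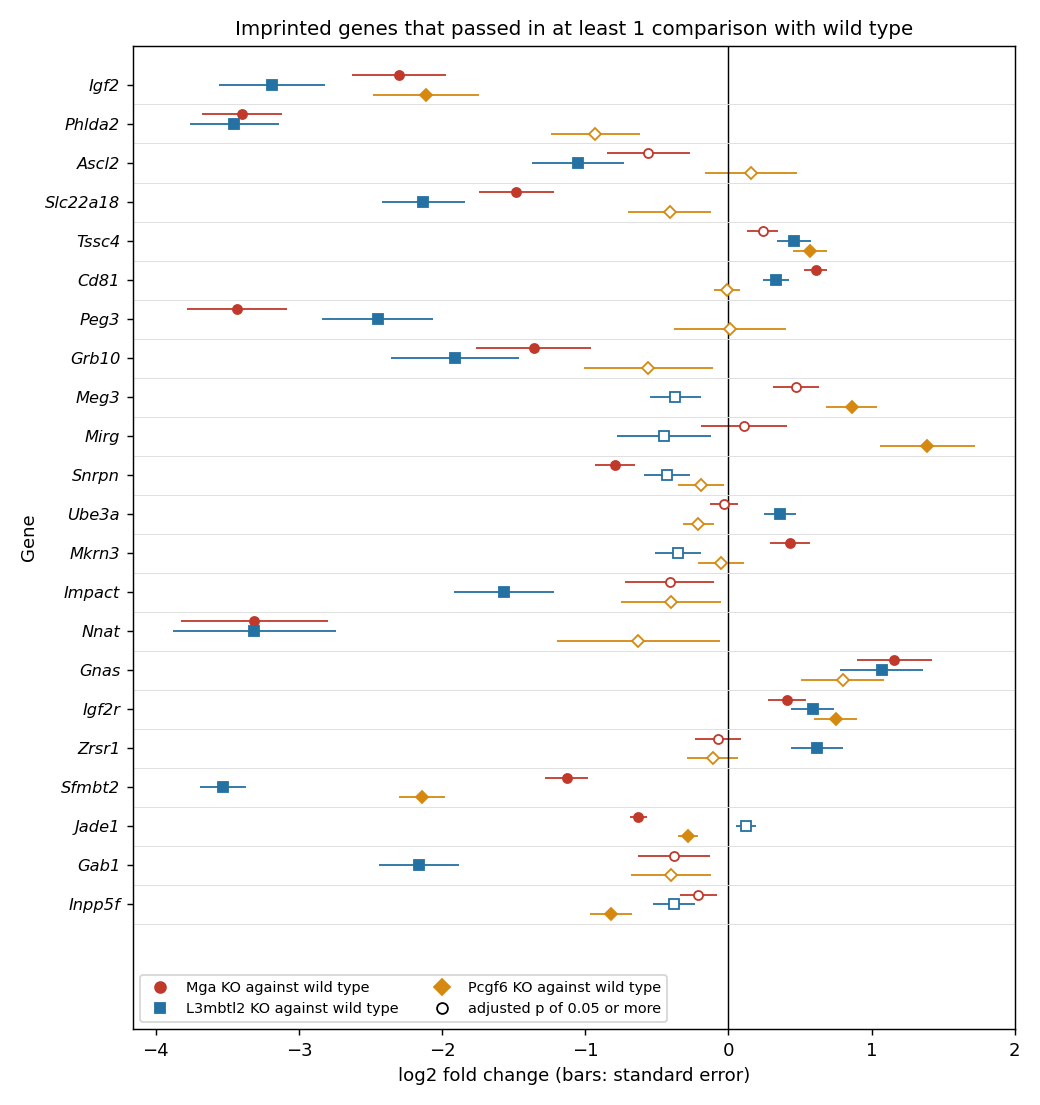
Log2 fold change against wild type (horizontal axis, bars are the standard error of limma) for the 22 imprinted genes (vertical axis) that passed in at least 1 comparison, with filled symbols for an adjusted p under 0.05 and open symbols for the rest. Igf2 and Sfmbt2 are filled and left of 0 and Igf2r filled and right of 0 for every knockout, while Peg3 sits at 0.01 in Pcgf6 knockout cells.

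The distal end of chromosome 7 holds neighbouring imprinted domains: H19 and Igf2, which share enhancers, and the Kcnq1 domain, whose genes are silenced on the paternal copy around the noncoding RNA Kcnq1ot1. Igf2 (chr7:142650766-142666816) was lower in all 3 knockouts. It stood at 38.8, 39.3 and 39.5 FPKM in wild type, at 13.2, 4.21 and 8.78 in Mga knockout, at 4.25 and 4.14 in L3mbtl2 knockout and at 9.06 and 9 in Pcgf6 knockout libraries. Every knockout library was below every wild type library, and the L3mbtl2 knockout mean was 9.34-fold below wild type. The log2 fold change was -2.30 ± 0.33 in Mga (adjusted p = 0.00121), -3.19 ± 0.37 in L3mbtl2 (adjusted p = 0.000452) and -2.11 ± 0.37 in Pcgf6 knockout cells (adjusted p = 0.0112). Leaving out the library labelled Mga knockout replicate 2 moved the first to -1.85 (adjusted p = 5.21e-05). The Pcgf6 call ended when Pcgf6 knockout replicate 1 (adjusted p = 0.0996) or 2 (adjusted p = 0.105) was left out. Igf2 shares 98 exon bases with the antisense Igf2os.

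H19, the maternally expressed noncoding RNA next to Igf2, passed in no comparison with all libraries in the fit. It stood at 3.1, 3.61 and 4.01 FPKM in wild type, at 3.91, 0.679 and 6.11 in Mga, at 1.58 and 1.3 in L3mbtl2 and at 2.72 and 2.94 in Pcgf6 knockout libraries. The L3mbtl2 and Pcgf6 knockout libraries were all below wild type, and the Mga knockout libraries lay on both sides of it. Its Mga knockout change was -0.44 (adjusted p = 0.606), and 0.45 (adjusted p = 0.0933) with the library labelled replicate 2 left out. The L3mbtl2 knockout change of H19, -1.25, passed in that fit (adjusted p = 0.00145) and not with all libraries (adjusted p = 0.189). Igf2 was lower in every knockout while H19 was higher than every wild type library in only 1 of 7 knockout libraries, Mga knockout replicate 3.

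Phlda2 (chr7:143501545-143503150), the highest member in wild type, fell in Mga and L3mbtl2 knockout cells. Its values were 159, 164 and 163 FPKM in wild type, 16.8, 23.2 and 8.96 in Mga, 15.5 and 13.9 in L3mbtl2 and 83.3 and 86.7 in Pcgf6 knockout libraries. All knockout libraries were below wild type without overlap, at 10.1%, 9.08% and 52.5% of the wild type mean by group. The log2 fold change was -3.40 ± 0.28 in Mga (adjusted p = 8.06e-05; without replicate 2 -3.71, adjusted p = 1.34e-05) and -3.45 ± 0.31 in L3mbtl2 knockout cells (adjusted p = 0.000154). In Pcgf6 knockout cells it was -0.93 (adjusted p = 0.0981) and missed the threshold.

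Slc22a18, a solute carrier between Cdkn1c and Phlda2, followed the same pattern. It stood at 3.92, 4.44 and 6.02 FPKM in wild type, 1.71, 1.97 and 1.28 in Mga, 1.23 and 0.809 in L3mbtl2, and 2.78 and 4.45 in Pcgf6 knockout libraries. The Mga and L3mbtl2 knockout libraries were all below wild type and the Pcgf6 knockout libraries overlapped it. It fell by 1.48 ± 0.26 on the log2 scale in Mga (adjusted p = 0.003; without replicate 2 -1.60, adjusted p = 0.00212) and by 2.13 ± 0.29 in L3mbtl2 knockout cells (adjusted p = 0.000903). Cdkn1c, the cell cycle inhibitor p57 of the same domain, passed in none with all libraries in the fit. It stood at 23.5, 23.9 and 24.5 FPKM in wild type, 10, 7.31 and 29.6 in Mga, 10.1 and 11.2 in L3mbtl2, and 18.5 and 19.3 in Pcgf6 knockout libraries. Mga knockout replicate 3 was alone in standing above wild type, and its Mga knockout change was -0.88 (adjusted p = 0.125). This became -1.47 (adjusted p = 0.000333) without replicate 3 and -0.47 (adjusted p = 0.312) without the library labelled replicate 2, the lowest.

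Ascl2, a trophoblast transcription factor, fell in L3mbtl2 knockout cells by 1.05 ± 0.32 on the log2 scale (adjusted p = 0.031). Its libraries stood at 4.2, 3.81 and 5.81 FPKM in wild type, 1.88, 4.43 and 3.33 in Mga, 2.33 and 1.97 in L3mbtl2, and 4.81 and 5.35 in Pcgf6 knockout. Only the L3mbtl2 knockout libraries were separate from wild type. The call was lost without wild type replicate 1 (adjusted p = 0.0618) or 3 (0.0974), or without L3mbtl2 knockout replicate 1 (0.098) or 2 (0.163). In Mga knockout cells it passed without the library labelled replicate 2, at -0.83 (adjusted p = 0.027).

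Cd81 and Tssc4, which lie between Ascl2 and Cdkn1c, were called higher in L3mbtl2 knockout cells. Cd81 stood at 59.1, 58.4 and 58.2 FPKM in wild type, 80.2, 89.2 and 99.8 in Mga, 74.6 and 72.9 in L3mbtl2, and 58.4 and 58.2 in Pcgf6 knockout libraries. The Mga and L3mbtl2 knockout libraries were all above wild type, by 0.61 ± 0.08 (adjusted p = 0.000787; 0.61 and 0.000722 without replicate 2) and 0.33 ± 0.09 (adjusted p = 0.0186) on the log2 scale, and the Pcgf6 knockout libraries lay within the wild type range. The L3mbtl2 call was lost without wild type replicate 2 (adjusted p = 0.0566) or 3 (0.0559) or without L3mbtl2 knockout replicate 1 (0.113) or 2 (0.0869). Tssc4, a spliceosome assembly factor, stood at 9.36, 10.9 and 11.2 FPKM in wild type, 13.5, 12.8 and 11 in Mga, 14.3 and 14.5 in L3mbtl2, and 14.9 and 16.2 in Pcgf6 knockout libraries. The L3mbtl2 and Pcgf6 knockout libraries were all higher than wild type, and the Mga knockout libraries overlapped it.

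The change of Tssc4 was 0.46 ± 0.12 in L3mbtl2 (adjusted p = 0.0152) and 0.57 ± 0.12 in Pcgf6 knockout cells (adjusted p = 0.0206). The first was lost without wild type replicate 1 (adjusted p = 0.0504) or L3mbtl2 knockout replicate 1 (0.082) or 2 (0.0905). The second was lost without wild type replicate 1 (adjusted p = 0.0725), 2 (0.0632) or 3 (0.05) or Pcgf6 knockout replicate 1 (0.116) or 2 (0.182). Tssc4 shares 220 exon bases with the opposite-strand Trpm5. Kcnq1ot1, the noncoding RNA of the domain, was under the filter at 0.0889 FPKM or less. Its recovered reads numbered 49, 54 and 59 in wild type, 186, 113 and 120 in Mga, 154 and 164 in L3mbtl2, and 54 and 50 in Pcgf6 knockout libraries, so the Mga and L3mbtl2 knockout libraries held more than any wild type library. Scaled for depth, the Pcgf6 knockout libraries (0.0275 and 0.0306 FPKM) were slightly above wild type as well (0.0239 to 0.0263).

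In the Kcnq1 cluster as a whole, 3 of 6 tested members passed in Mga (1 higher, 2 lower), 5 in L3mbtl2 (2 higher, 3 lower) and 1 in Pcgf6 knockout cells (1 higher). These are 50%, 83.3% and 16.7% of the 6, beside 39.5%, 40.0% and 10.1% of all tested genes. Other tested genes within 500 kb numbered 11, with further imprinted genes (described below) left out. Of these, 1 was higher and 2 were lower in Mga knockout cells and likewise in L3mbtl2 knockout cells. In both, the lower genes included Igf2os, the antisense gene that shares 98 exon bases with Igf2. It was not on the list of genes left out, and reads of the shared bases could not be told apart. Among those left out, Nap1l4 was higher in Mga (0.24, adjusted p = 0.0127) and L3mbtl2 knockout cells (0.20, 0.0368). Dhcr7 was lower in both (-0.96, 0.0068, and -1.81, 0.000629). Without replicate 2 the Mga changes were 0.28 (0.00117) and -1.09 (0.00322). Tspan32 was higher in L3mbtl2 knockout cells (1.34, 0.0154), and Osbpl5 passed in none. The median change of the other tested genes on chromosome 7 was 0.05, -0.05 and 0.10 in Mga, L3mbtl2 and Pcgf6 knockout cells.

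**Figure D3:**
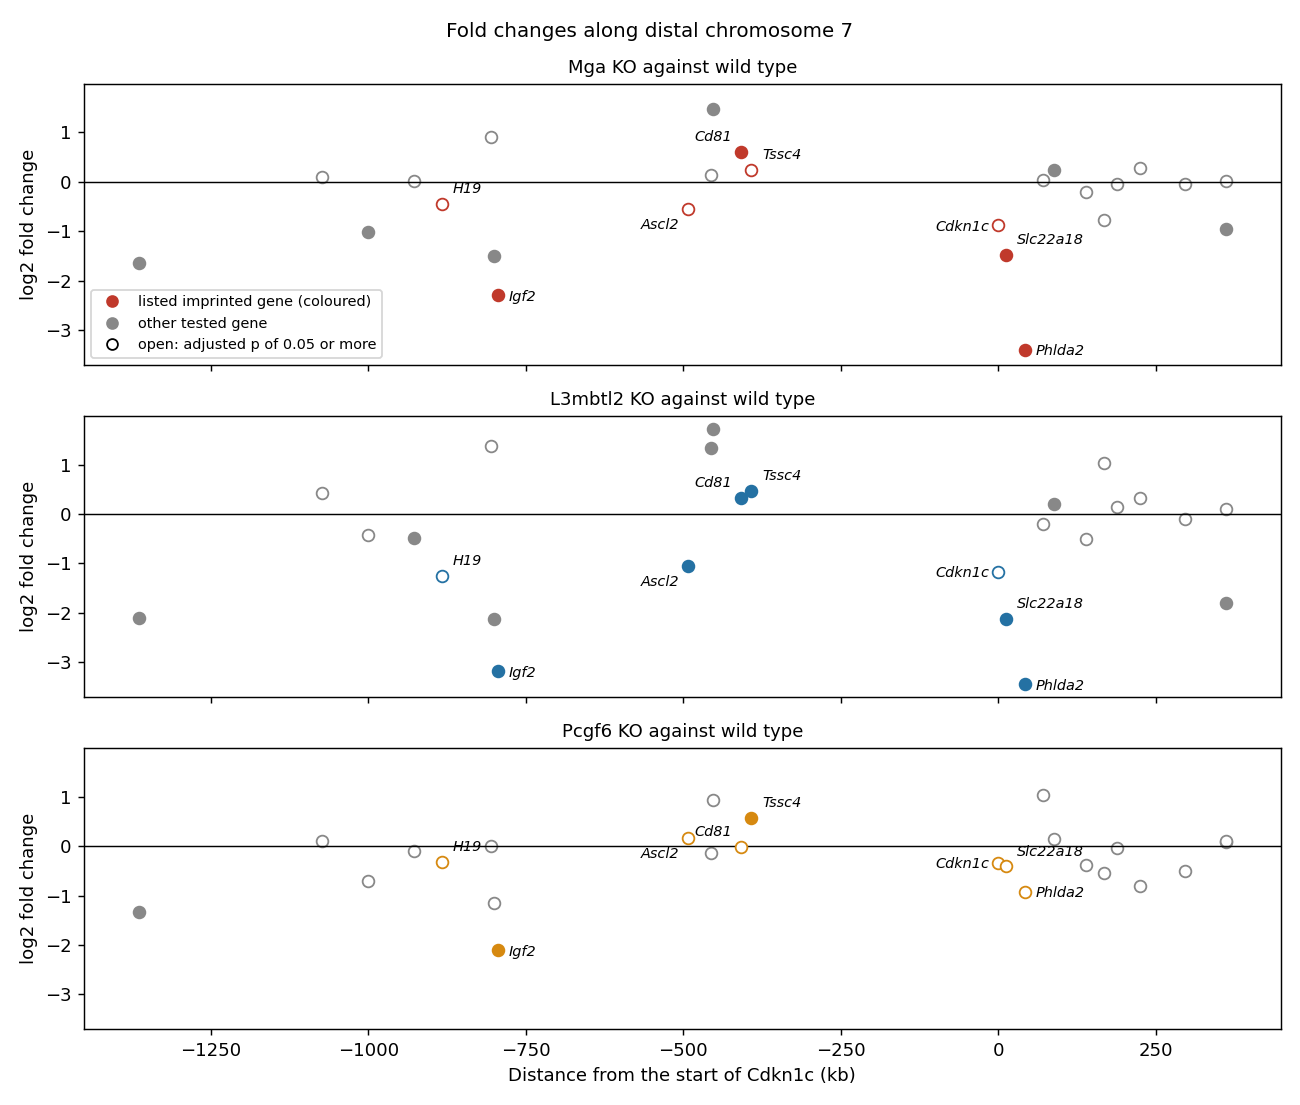
Log2 fold change against wild type (vertical axis) of tested genes along distal chromosome 7 by distance from the start of Cdkn1c in kb (horizontal axis), with listed imprinted genes coloured and named, other genes grey, and open symbols for an adjusted p of 0.05 or more. Igf2 at -794 kb and Phlda2 at 42.1 kb are the lowest points in Mga and L3mbtl2 knockout cells, with Cd81 and Tssc4 above 0 between them.

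Several genes of these domains are placental genes, so trophoblast markers are set beside them. The summed level of 14 trophoblast markers was 416 to 430 FPKM in wild type, 223, 71.1 and 121 in Mga, 38.2 and 40.3 in L3mbtl2, and 94.9 and 96.4 in Pcgf6 knockout libraries. Krt8 and Krt18 made up most of the wild type sum, and these keratins are also expressed outside trophoblast. Of the 10 tested markers, 1 was higher and 4 were lower in Mga, 7 were lower in L3mbtl2 and 3 were lower in Pcgf6 knockout cells. Of all tested genes, 16.7%, 16.7% and 4.62% were lower in these comparisons, and 22.8% were higher in Mga knockout cells. The placental Tpbpa and Prl3d1 were listed at 0 in all wild type libraries and Elf5 stood at 0.0895 FPKM or less there. The part of these cells in the fall of Igf2, Phlda2, Ascl2, Slc22a18, Sfmbt2 and Gab1 was not tested.

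Peg3, a paternally expressed zinc finger gene at the proximal end of chromosome 7 (chr7:6703892-6730431), fell in Mga and L3mbtl2 knockout cells and lay within the wild type range in Pcgf6 knockout cells. It stood at 19, 18.8 and 16.9 FPKM in wild type, 0.809, 2.84 and 1.71 in Mga, 3.21 and 3.3 in L3mbtl2, and 18.4 and 18.2 in Pcgf6 knockout libraries. The Mga and L3mbtl2 knockout libraries were far below wild type, at 9.81% and 17.9% of its mean, and the Pcgf6 knockout libraries lay within its range. The log2 fold change was -3.43 ± 0.35 in Mga (adjusted p = 0.00021; without replicate 2 -3.83, adjusted p = 1.9e-05), -2.45 ± 0.39 in L3mbtl2 (adjusted p = 0.00178) and 0.01 ± 0.39 in Pcgf6 knockout cells (adjusted p = 1). Tested directly, Peg3 was lower in Mga than in Pcgf6 knockout cells by -3.44 ± 0.39 (adjusted p = 0.000924; without replicate 2 -3.84, adjusted p = 6.75e-05) and lower in L3mbtl2 than in Pcgf6 knockout cells by -2.45 ± 0.42 (adjusted p = 0.00417).

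The 2 other listed genes of the Peg3 region were under the filter. Usp29, which starts beside Peg3 on the other strand, had 16, 22 and 16 reads in wild type, 1, 2 and 0 in Mga, 5 and 6 in L3mbtl2, and 14 and 25 in Pcgf6 knockout libraries. Zim1, the maternally expressed neighbour, had 69, 68 and 49 reads in wild type, 12, 25 and 15 in Mga, 16 and 17 in L3mbtl2, and 63 and 59 in Pcgf6 knockout libraries. Both had fewer reads in each Mga and L3mbtl2 knockout library than in any wild type library, with no test at this depth. Usp29 shares 2582 exon bases with Zim3, so its reads are uncertain. Of 14 other tested genes within 500 kb, with further imprinted genes left out, 3 were lower in Mga and 2 in L3mbtl2 knockout cells.

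Igf2r and Grb10 dampen growth factor signalling: IGF2R carries IGF2 to the lysosome, and GRB10 binds insulin and IGF receptors. Igf2r (chr17:12682406-12769664) was higher in all 3 knockouts while its ligand gene Igf2 was lower. It stood at 17.4, 17 and 16.5 FPKM in wild type, 17.6, 25.3 and 25.5 in Mga, 25.3 and 26 in L3mbtl2, and 28.9 and 28.4 in Pcgf6 knockout libraries. Every knockout library was above every wild type library, though Mga knockout replicate 1 exceeded the highest of them only narrowly. The change was 0.41 ± 0.13 in Mga (adjusted p = 0.0399), 0.59 ± 0.15 in L3mbtl2 (adjusted p = 0.0136) and 0.75 ± 0.15 in Pcgf6 knockout cells (adjusted p = 0.0172).

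The Mga knockout call of Igf2r was lost in 15 of 21 alternatives: the change was 0.32 (adjusted p = 0.0773) with the library labelled Mga knockout replicate 2 left out, adjusted p was 0.116 without replicate 3, and without any other single library but Mga knockout replicate 1 it lay between 0.0639 and 0.111. Dropping L3mbtl2 knockout replicate 1 or 2 ended the L3mbtl2 call (adjusted p = 0.0719 and 0.0849). The Pcgf6 call was lost without wild type replicate 1 (adjusted p = 0.0576), 2 (0.0643) or 3 (0.0651) or without Pcgf6 knockout replicate 1 (0.137) or 2 (0.129). Airn, the paternal noncoding RNA that overlaps Igf2r and silences it on that copy, was under the filter with 22, 15 and 15 reads in wild type, 14, 5 and 10 in Mga, 16 and 10 in L3mbtl2, and 4 and 3 in Pcgf6 knockout libraries.

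Grb10 (chr11:11930508-12038683) fell in Mga and L3mbtl2 knockout cells. It stood at 28.1, 27.8 and 27.4 FPKM in wild type, 23.5, 8.71 and 6.1 in Mga, 7.37 and 7.27 in L3mbtl2, and 18.8 and 18.7 in Pcgf6 knockout libraries. All knockout libraries were below wild type, Mga knockout replicate 1 by the least. The change was -1.36 ± 0.40 in Mga (adjusted p = 0.0263) and -1.91 ± 0.45 in L3mbtl2 knockout cells (adjusted p = 0.0099). The Mga call ended when the library labelled Mga knockout replicate 2 was dropped (-1.20, adjusted p = 0.0553), without replicate 3 (-0.95, 0.0712) or without wild type replicate 1 (0.0715), 2 (0.0705) or 3 (0.0698). Dropping L3mbtl2 knockout replicate 1 or 2 ended the L3mbtl2 call (adjusted p = 0.0625 and 0.0622). Of 4 other tested genes within 500 kb of Grb10, 1 was higher and 2 lower in Mga and 2 were lower in L3mbtl2 knockout cells. This count left out further imprinted genes, among them Cobl, which is described below. The other tested genes of chromosome 11 had a median change of -0.23, 0.13 and -0.31 in Mga, L3mbtl2 and Pcgf6 knockout cells.

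In the Dlk1/Meg3 domain of chromosome 12, the maternal noncoding RNAs Meg3, Rian and Mirg are read one after the other, and the paternal Dlk1 encodes an inhibitor of Notch signalling and of fat cell formation. With all libraries in the fit, Meg3 and Mirg were called higher in Pcgf6 knockout cells, and Rian was not. Meg3 (chr12:109541001-109571726) stood at 2.95, 2.96 and 3.1 FPKM in wild type, 3.95, 5.45 and 3.38 in Mga, 2.33 and 2.27 in L3mbtl2, and 5.44 and 5.57 in Pcgf6 knockout libraries. The Mga and Pcgf6 knockout libraries were all above wild type and the L3mbtl2 knockout libraries all below. Meg3 rose by 0.86 ± 0.18 in Pcgf6 knockout cells (adjusted p = 0.0233). It missed the threshold at 0.47 in Mga (adjusted p = 0.051) and -0.37 in L3mbtl2 knockout cells (adjusted p = 0.139), and passed in Mga knockout cells without replicate 2 (0.28, adjusted p = 0.0416). The Pcgf6 call was lost without wild type replicate 1 (adjusted p = 0.0807), 2 (0.083) or 3 (0.0703) or Pcgf6 knockout replicate 1 (0.155) or 2 (0.17).

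Mirg stood at 0.528, 0.662 and 0.598 FPKM in wild type, 0.547, 1.03 and 0.474 in Mga, 0.52 and 0.315 in L3mbtl2, and 1.68 and 1.74 in Pcgf6 knockout libraries. The Pcgf6 knockout libraries were the highest of the 10, with a change of 1.39 ± 0.33 (adjusted p = 0.0337), and the other knockouts were on both sides of or below wild type. That call was lost in 10 of 21 alternatives: without wild type replicate 1 (adjusted p = 0.111), 2 (0.0908) or 3 (0.0967), L3mbtl2 knockout replicate 1 (0.0524) or 2 (0.0516) or Pcgf6 knockout replicate 1 (0.191) or 2 (0.213) among them. Rian, a host of small nucleolar RNAs, had means of 6.16 ± 0.36 FPKM in wild type and 9.99 ± 0.493 in Pcgf6 knockout cells (adjusted p = 0.0683). Dlk1 passed in no comparison with all libraries in the fit. Its means were 1.67 ± 0.0367 in wild type, 1.81 ± 1.18 in Mga, 0.722 ± 0.0743 in L3mbtl2 and 2.5 ± 0.131 in Pcgf6 knockout cells. The library labelled Mga knockout replicate 2 had the lowest Dlk1 level, 0.475 FPKM, and with it left out Dlk1 was higher in Mga knockout cells, by 0.53 (adjusted p = 0.0111). That fit also called Dlk1 lower in L3mbtl2 (-1.11, adjusted p = 0.000374) and higher in Pcgf6 knockout cells (0.55, adjusted p = 0.0216).

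Among the genes of the Snrpn domain of chromosome 7, which is deleted in Prader-Willi and Angelman syndromes in people, Snrpn fell in Mga knockout cells. This paternally expressed splicing protein gene stood at 9.43, 9.48 and 8.97 FPKM in wild type, 4.86, 6.64 and 4.72 in Mga, 7.53 and 6.23 in L3mbtl2, and 8.35 and 7.89 in Pcgf6 knockout libraries. All knockout libraries were below wild type, and only the Mga knockout change, -0.79 ± 0.14 (adjusted p = 0.00314; without replicate 2 -0.94, adjusted p = 0.000143), passed. Snrpn shares 589 exon bases (27.3%) with the annotated Gm38393, so its level is uncertain. Mkrn3, a paternally expressed ubiquitin ligase gene that restrains puberty, stood at 2.28, 2.41 and 2.02 FPKM in wild type, 2.94, 2.74 and 3.5 in Mga, 1.64 and 1.84 in L3mbtl2, and 2.23 and 2.07 in Pcgf6 knockout libraries. The Mga knockout libraries were the 3 highest, by 0.43 ± 0.14 (adjusted p = 0.0392; without replicate 2 0.50, adjusted p = 0.0129). The Mkrn3 call was lost in 15 of 21 alternatives, among them without wild type replicate 1 (adjusted p = 0.091), 2 (0.073) or 3 (0.137), without Mga knockout replicate 3 (0.0902) and without any single L3mbtl2 or Pcgf6 knockout library (0.0608 to 0.065).

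Ube3a, whose ubiquitin ligase is expressed from the maternal copy in neurons and from both copies elsewhere, stood at 3.38, 3.32 and 3.11 FPKM in wild type, 3.33, 3.1 and 3.18 in Mga, 4.2 and 4.23 in L3mbtl2, and 2.81 and 2.84 in Pcgf6 knockout libraries. The L3mbtl2 knockout libraries were the highest and the Pcgf6 knockout libraries the lowest. It rose by 0.36 ± 0.11 in L3mbtl2 knockout cells (adjusted p = 0.0313), and the call was lost in 10 of 21 alternatives. These included the fits without wild type replicate 1 (adjusted p = 0.0661), 2 (0.0835) or 3 (0.103), without L3mbtl2 knockout replicate 1 (0.145) or 2 (0.151) and without Pcgf6 knockout replicate 1 (0.0584) or 2 (0.0586). Ube3a shares 1803 exon bases with the antisense Snhg14. Peg12, at 1.14 ± 0.0681 FPKM in wild type, passed in no comparison.

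Nnat, Impact and Gnas are members outside the larger domains. Nnat (chr2:157560078-157562522), a paternally expressed proteolipid gene best known from neurons, fell in Mga and L3mbtl2 knockout cells. It stood at 13.5, 12.4 and 15.3 FPKM in wild type, 1.34, 0.474 and 3.16 in Mga, 1.5 and 1.12 in L3mbtl2, and 9.48 and 8.19 in Pcgf6 knockout libraries. No knockout library reached the wild type range, and the Mga and L3mbtl2 knockout means were 12.1% and 9.5% of wild type. The change was -3.31 ± 0.51 in Mga (adjusted p = 0.00166; without replicate 2 -2.67, adjusted p = 0.000316) and -3.31 ± 0.57 in L3mbtl2 knockout cells (adjusted p = 0.00267). Nnat lies in an intron of Blcap, a gene of the wider imprinted list, and Blcap was higher in the same cells, by 0.54 (adjusted p = 0.0033; without replicate 2 0.61, adjusted p = 0.000766) and 0.48 (adjusted p = 0.00907). Dropping L3mbtl2 knockout replicate 1 ended the Blcap call in L3mbtl2 knockout cells (adjusted p = 0.0765).

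Impact, a paternally expressed regulator of the translation kinase GCN2, stood at 22.2, 20.4 and 20.3 FPKM in wild type, 17.9, 24.9 and 8.72 in Mga, 6.77 and 7.23 in L3mbtl2, and 17.1 and 14.8 in Pcgf6 knockout libraries. It fell by 1.57 ± 0.35 in L3mbtl2 knockout cells (adjusted p = 0.00816), whose libraries were the lowest, and dropping L3mbtl2 knockout replicate 1 ended that call (adjusted p = 0.0612). In Mga knockout cells the library labelled replicate 2 alone was above wild type, and without it Impact was lower by -0.74 (adjusted p = 0.0403). Gnas stood at 0.153, 0.254 and 0.198 FPKM in wild type, 0.631, 0.454 and 0.633 in Mga, 0.557 and 0.501 in L3mbtl2, and 0.454 and 0.392 in Pcgf6 knockout libraries. Every knockout library was above wild type, by 1.16 ± 0.26 in Mga (adjusted p = 0.00817; without replicate 2 1.29, adjusted p = 0.00309) and 1.07 ± 0.29 in L3mbtl2 knockout cells (adjusted p = 0.0176). The L3mbtl2 call of Gnas was lost without wild type replicate 1 (adjusted p = 0.0551) or L3mbtl2 knockout replicate 1 (0.106) or 2 (0.0751). How much of this gene's RNA the listed level covers was not tested.

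Sfmbt2, Jade1, Gab1 and Slc38a4 are the 4 listed genes of the noncanonical class. Sfmbt2 (chr2:10370510-10595253), itself an MBT-repeat Polycomb protein gene needed in trophoblast, was lower in all 3 knockouts. It stood at 6.85, 6.87 and 6.38 FPKM in wild type, 2.8, 2.73 and 3.57 in Mga, 0.54 and 0.442 in L3mbtl2, and 1.36 and 1.52 in Pcgf6 knockout libraries. The 4 groups did not overlap, and their means were 45.3%, 7.33% and 21.5% of wild type in Mga, L3mbtl2 and Pcgf6 knockout cells. The change was -1.13 ± 0.15 in Mga (adjusted p = 0.000716; without replicate 2 -1.06, adjusted p = 0.000583), -3.53 ± 0.16 in L3mbtl2 (adjusted p = 6.58e-06) and -2.14 ± 0.16 in Pcgf6 knockout cells (adjusted p = 0.000314). Sfmbt2 was the only member whose call held in all 21 alternatives in all 3 comparisons with wild type.

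The knockouts also differed from each other in Sfmbt2. It was higher in Mga than in L3mbtl2 knockout cells by 2.40 ± 0.16 (adjusted p = 5.14e-05) and than in Pcgf6 knockout cells by 1.01 ± 0.16 (adjusted p = 0.00432). With the library labelled replicate 2 left out these were 2.47 (adjusted p = 4.38e-05) and 1.08 (adjusted p = 0.00129). It was lower in L3mbtl2 than in Pcgf6 knockout cells by -1.39 ± 0.18 (adjusted p = 0.00125). The Mga against Pcgf6 call was lost without Pcgf6 knockout replicate 1 (adjusted p = 0.0525).

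Jade1 stood at 47.8, 45.9 and 45.2 FPKM in wild type, 29.8, 31.1 and 29 in Mga, 50.3 and 50.2 in L3mbtl2, and 38.1 and 38.1 in Pcgf6 knockout libraries. The Mga and Pcgf6 knockout libraries were all below wild type and the L3mbtl2 knockout libraries above it. It fell by 0.63 ± 0.06 in Mga (adjusted p = 0.000147; without replicate 2 -0.65, adjusted p = 3.44e-05) and by 0.28 ± 0.07 in Pcgf6 knockout cells (adjusted p = 0.031), and its change of 0.12 in L3mbtl2 knockout cells missed the threshold (adjusted p = 0.178). The Pcgf6 call was lost without wild type replicate 1 (adjusted p = 0.117), 2 (0.111) or 3 (0.082), L3mbtl2 knockout replicate 1 (0.0686) or 2 (0.0692), or Pcgf6 knockout replicate 1 (0.201) or 2 (0.212). Tested directly, Jade1 was lower in Mga than in L3mbtl2 knockout cells by -0.75 ± 0.07 (adjusted p = 0.000188; without replicate 2 -0.77, adjusted p = 6.37e-05).

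Gab1 (chr8:80764438-80880519) fell in L3mbtl2 knockout cells. It stood at 76.7, 74.9 and 73.3 FPKM in wild type, 38.1, 89.4 and 56.6 in Mga, 17.1 and 16.2 in L3mbtl2, and 58.4 and 55.2 in Pcgf6 knockout libraries. The L3mbtl2 knockout libraries were at 22.2% of the wild type mean, a change of -2.16 ± 0.28 (adjusted p = 0.000699). Only the library labelled Mga knockout replicate 2 was above wild type, and without it the Mga knockout change was -0.69 (adjusted p = 0.00487). Slc38a4 passed in no comparison with all libraries, at 37.2, 35.5 and 36.8 FPKM in wild type, 51.6, 15.2 and 86.6 in Mga, 34.9 and 35.3 in L3mbtl2, and 43.6 and 44 in Pcgf6 knockout libraries. With its lowest library, labelled Mga knockout replicate 2, left out, Slc38a4 was higher in Mga knockout cells by 0.87 (adjusted p = 0.00482).

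**Figure D4:**
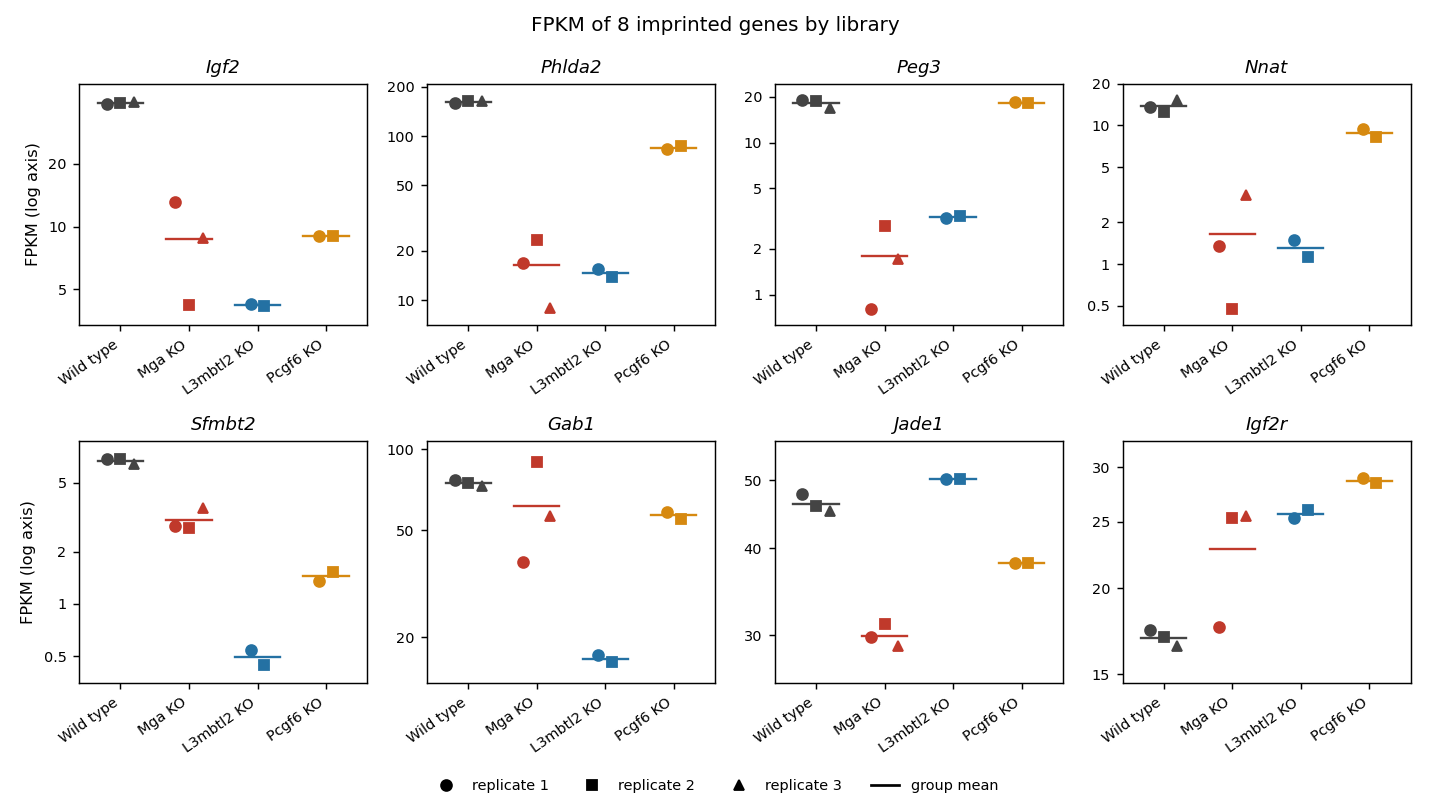
FPKM (vertical log axes) of 8 imprinted genes in each library, by group (horizontal axis), with symbols for replicates and lines for group means. The Peg3 values of Pcgf6 knockout cells sit on the wild type values, Sfmbt2 falls to 0.491 FPKM in L3mbtl2 knockout cells, and Jade1 is lowest in Mga knockout cells at 29.9 FPKM.

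Inpp5f, a phosphoinositide phosphatase gene with an imprinted short transcript, stood at 3.53, 2.99 and 3.01 FPKM in wild type, 2.43, 2.85 and 2.92 in Mga, 2.6 and 2.24 in L3mbtl2, and 1.76 and 1.73 in Pcgf6 knockout libraries. All knockout libraries were below wild type and the Pcgf6 knockout libraries were the lowest. It fell by 0.82 ± 0.15 in Pcgf6 knockout cells (adjusted p = 0.0125), and this was lost without wild type replicate 1 (adjusted p = 0.0569) or Pcgf6 knockout replicate 1 (0.112) or 2 (0.124). Zrsr1, a retrogene for a splicing factor that lies in an intron of Commd1, stood at 3.07, 2.76 and 2.67 FPKM in wild type, 2.13, 2.78 and 3.27 in Mga, 4.49 and 4.29 in L3mbtl2, and 2.78 and 2.47 in Pcgf6 knockout libraries. Only the L3mbtl2 knockout libraries were outside the wild type range on 1 side, and it rose there by 0.62 ± 0.18 (adjusted p = 0.0261).

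The Zrsr1 call was lost without wild type replicate 2 (adjusted p = 0.0745) or 3 (0.0796), without L3mbtl2 knockout replicate 1 (0.14) or 2 (0.107), and when each library was centred on the median of its chromosome (0.146). Of 12 other tested genes within 500 kb of Zrsr1, with further imprinted genes left out, 6 were higher and none lower in L3mbtl2 knockout cells. Their median change was 0.73. Zrsr1 and Commd1 share 412 exon bases on opposite strands. Commd1, a copper and NF-kB regulator, had means of 0.796 ± 0.128 FPKM in wild type, 0.724 ± 0.05 in Mga, 1 ± 0.101 in L3mbtl2 and 0.735 ± 0.253 in Pcgf6 knockout cells and passed in none.

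Among the members that passed in no comparison, several varied widely within the Mga knockout group. The highest Mga knockout library exceeded the lowest by over 2-fold in FPKM at 20 of 38 tested members (19 on the log2(FPKM + 0.1) scale) and by over 4-fold at 8 on both scales. In the other groups no tested member ranged over 2-fold. The median SD of log2 values over the tested members was 0.0755 in wild type, 0.566 in Mga, 0.0951 in L3mbtl2 and 0.055 in Pcgf6 knockout libraries, and over all tested genes 0.0864, 0.338, 0.0637 and 0.0667. Peg10, a placental gene derived from a retrotransposon, ranged 31.6-fold among the Mga knockout libraries, at 83.2, 2.63 and 21.8 FPKM against 46.5, 44.9 and 41.2 in wild type. Its L3mbtl2 knockout libraries, 22 and 22.2 FPKM, were below wild type (adjusted p = 0.497), and its Pcgf6 knockout libraries held 46.7 and 45.1. Its Mga knockout change was -1.37 (adjusted p = 0.294) with all libraries and -0.05 (adjusted p = 0.938) with the library labelled replicate 2 left out. Without replicate 1 it was -2.51 (adjusted p = 0.0241).

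Mest, a paternally expressed hydrolase gene used as a mark of mesoderm, stood at 24.5, 25.2 and 26.8 FPKM in wild type and 133, 22 and 50.3 in Mga knockout libraries, where it was highest in replicate 1 and lowest in replicate 2. Leaving out the library labelled Mga knockout replicate 2 put it higher in Mga knockout cells by 1.68 (adjusted p = 0.00394). Its L3mbtl2 and Pcgf6 knockout means were 28.8 ± 1.97 and 23.3 ± 0.088 FPKM. Copg2, its neighbour, shares 912 exon bases with Mest on the opposite strand and had means of 12.8 ± 0.224, 14.5 ± 1.91, 10.5 ± 0.414 and 11.2 ± 0.106 FPKM in wild type, Mga, L3mbtl2 and Pcgf6 knockout cells. Copg2 was higher in Mga than in L3mbtl2 knockout cells by 0.45 ± 0.11 (adjusted p = 0.0225; without replicate 2 0.56, adjusted p = 0.0006). Sgce, which encodes a sarcoglycan beside Peg10, had means of 0.514 ± 0.0496 FPKM in wild type and 0.595 ± 0.486 in Mga knockout cells.

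Libraries of the Mga knockout group also differed in the summed level of 15 fibroblast markers, which are genes of feeder cells. The sum was 285 to 287 FPKM in wild type, 826, 247 and 347 in Mga, 353 and 347 in L3mbtl2, and 235 and 239 in Pcgf6 knockout libraries. It was highest in Mga knockout replicate 1, where Peg10, Mest and Sgce were also highest, and none of the 15 markers was at 0 in any library. By the test, 1 of these 15 markers was higher in Mga knockout cells, beside 22.8% of all tested genes. Peg10, Mest and Sgce all lie on chromosome 6. The other tested genes of that chromosome had a median log2 difference from wild type of 0.52, 0.05 and 0.27 in Mga knockout replicates 1, 2 and 3. The part of this difference in the values of Peg10, Mest and Sgce was not tested. The 16 endoderm markers summed to 336 to 340 FPKM in wild type, 541, 295 and 353 in Mga, 461 and 464 in L3mbtl2, and 359 and 357 in Pcgf6 knockout libraries. Of 13 tested, 3, 6 and 4 were higher and none lower in Mga, L3mbtl2 and Pcgf6 knockout cells. Of all tested genes, 22.8%, 23.4% and 5.45% were higher in these comparisons. The endoderm marker Ttr was listed at 0 in all wild type libraries. The part of these cells in the members' values was not tested.

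**Figure D5:**
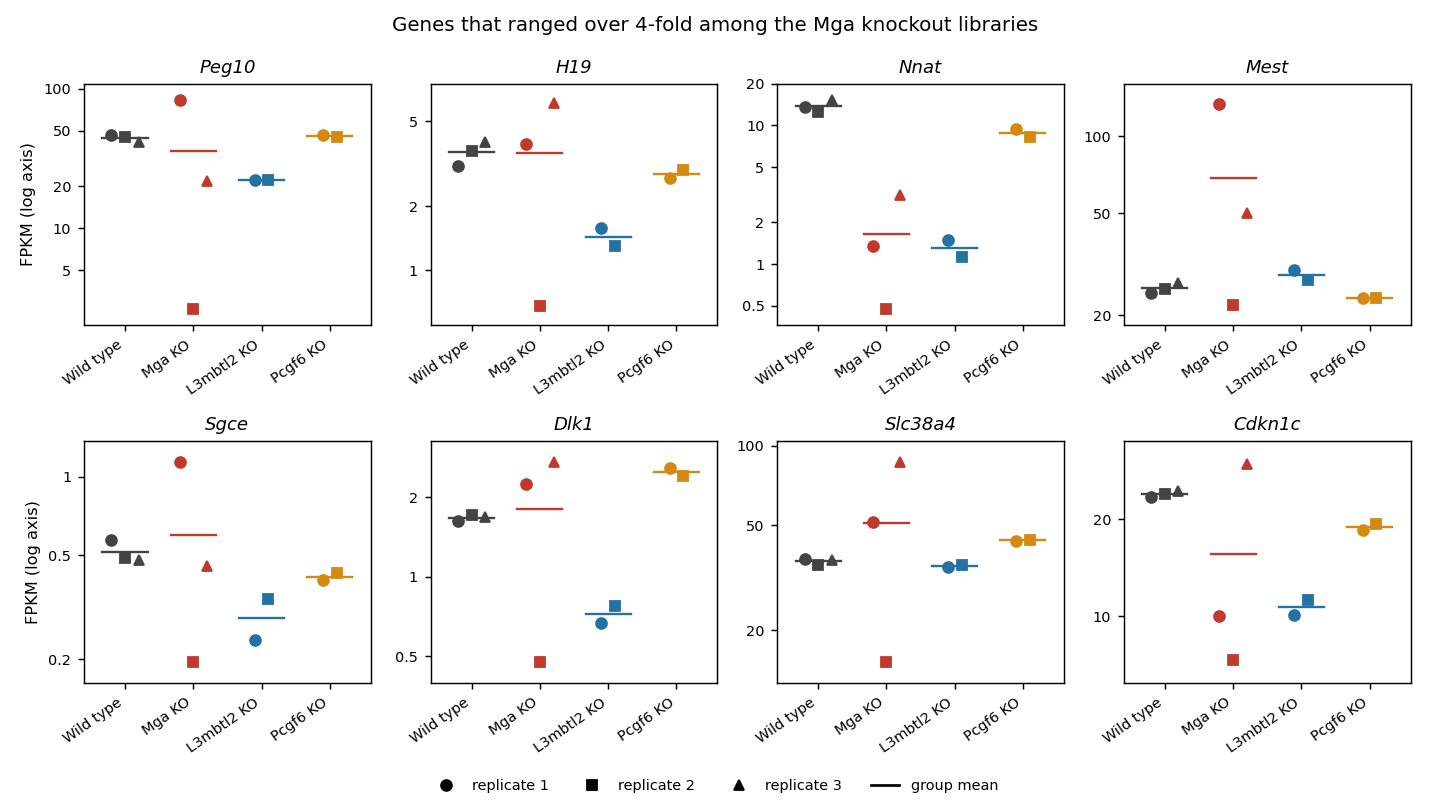
FPKM (vertical log axes) by group (horizontal axis) of the 8 tested imprinted genes whose highest Mga knockout library exceeded the lowest by over 4-fold, with symbols for replicates and lines for group means. The library labelled Mga knockout replicate 2 (square) is the lowest Mga knockout library in all 8 panels.

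Macrophage markers moved in opposite directions in the same groups. The sum of 12 of them was 163 to 170 FPKM in wild type, 26.8, 31.8 and 8.83 in Mga, 485 and 471 in L3mbtl2, and 222 and 223 in Pcgf6 knockout libraries. All 12 were lower in Mga, 7 were higher in L3mbtl2 and 3 were higher in Pcgf6 knockout cells. The shares of all tested genes called in those directions were 16.7%, 23.4% and 5.45%. Pf4, C1qa, C1qb, C1qc, Tyrobp and Clec4n were at 0 in at least 1 Mga knockout library. The part of these cells in the members' values was not tested either. The pluripotency markers Pou5f1, Sox2, Nanog and 5 others summed to 2356 to 2556 FPKM in wild type and to 3333 to 4136 in the knockout libraries. Of these 8, 5, 5 and 4 were higher and none lower in Mga, L3mbtl2 and Pcgf6 knockout cells. Among all tested genes 22.8%, 23.4% and 5.45% were higher there. Mesoderm and neuroectoderm markers, 8 of each, had 5 and 4 tested genes with at most 2 calls in a direction in any comparison with wild type.

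The other members with no call were the zinc finger gene Plagl1, the neuronal scaffold gene Ppp1r9a, Zdbf2, Trappc9 and Peg13. Plagl1, a paternally expressed growth regulator, had means of 1.28 ± 0.0158 FPKM in wild type, 2.01 ± 0.599 in Mga, 1.16 ± 0.11 in L3mbtl2 and 2.19 ± 0.11 in Pcgf6 knockout cells. Its Mga and Pcgf6 knockout libraries were all above wild type, at adjusted p = 0.0501 and 0.077. With the library labelled Mga knockout replicate 2 left out, Plagl1 (0.35, adjusted p = 0.0462), Ppp1r9a (0.51, adjusted p = 0.0154) and Copg2 (0.28, adjusted p = 0.00495) were higher and Zdbf2 (-0.54, adjusted p = 0.0255) and Rian (-0.36, adjusted p = 0.00959) lower in Mga knockout cells. Trappc9, a vesicle transport gene, had means between 6.27 and 8.44 FPKM in the 4 groups. The noncoding Peg13, read from an intron of Trappc9, had means of 0.886 ± 0.169 FPKM in wild type and 0.315 ± 0.121 in Pcgf6 knockout cells, whose libraries were both below wild type, at -1.27 (adjusted p = 0.109).

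The remaining untested members were low everywhere. Asb4 reached 0.39 FPKM, Nap1l5 0.457 and Rasgrf1 0.0729 in their highest libraries. Rasgrf1 and Nap1l5 had at most 20 reads in a library. Nap1l5 had 7, 14 and 9 reads in wild type, 2, 4 and 7 in Mga, and 20 and 15 in L3mbtl2 knockout libraries, and none of these genes was tested.

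By reported active copy, the paternally expressed members were called lower more often than higher: 1 was higher and 6 were lower of 19 tested in Mga, 1 and 6 in L3mbtl2, and 0 and 3 in Pcgf6 knockout cells, with medians of -0.28, -0.64 and -0.13. The maternally expressed members showed 2 higher and 2 lower of 13 in Mga, 3 and 3 in L3mbtl2 and 4 and 0 in Pcgf6 knockout cells, with medians of 0.00, -0.37 and 0.16. In all, 36.8%, 36.8% and 15.8% of the paternally and 30.8%, 46.2% and 30.8% of the maternally expressed members were called in the 3 knockouts, beside 39.5%, 40.0% and 10.1% of all tested genes. By direction, 5.26% of the paternally expressed members were higher and 31.6% lower in Mga and in L3mbtl2 knockout cells, beside 22.8% and 16.7% of all tested genes in Mga and 23.4% and 16.7% in L3mbtl2 knockout cells. The difference between the classes was not tested. All 4 members higher in Pcgf6 knockout cells, Tssc4, Meg3, Mirg and Igf2r, are maternally expressed, and all of these calls were lost without either Pcgf6 knockout library, as given above. When the library labelled Mga knockout replicate 2 was left out, the Mga knockout counts were 5 higher and 9 lower of 19 paternal and 4 and 4 of 13 maternal members. Of the 4 noncanonical members, which are all paternally expressed, 2 were lower in each of the 3 knockouts: Sfmbt2 with Jade1 in Mga and Pcgf6 knockout cells, and Sfmbt2 with Gab1 in L3mbtl2 knockout cells.

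The knockouts were also compared with each other. Between Mga and L3mbtl2 knockout cells 9 of 38 members (23.7%) passed, 6 higher and 3 lower in Mga, beside a background of 22.8% of all tested genes (10.9% higher, 12.0% lower). Between Mga and Pcgf6 knockout cells 11 members (28.9%) passed, 3 higher and 8 lower in Mga, beside 22.6% (12.0% higher, 10.6% lower). Between L3mbtl2 and Pcgf6 knockout cells 16 members (42.1%) passed, 4 higher and 12 lower in L3mbtl2, beside 30.5% (16.6% higher, 13.9% lower). Leaving out the library labelled Mga knockout replicate 2 gave counts of 16, 22 and 22, in fits that called 36.1%, 44.5% and 46.8% of all tested genes. The first fell without either L3mbtl2 knockout library, the second without either Pcgf6 knockout library, and the third without any library of these knockouts. Each of those fits left a group with a single library, and the share of all tested genes called fell as well. Calls that held in all 21 alternatives were Sfmbt2 and Jade1 between Mga and L3mbtl2 knockout cells, and Phlda2, Peg3, Meg3, Sfmbt2 and Gab1 between L3mbtl2 and Pcgf6 knockout cells. No member held in all of them between Mga and Pcgf6 knockout cells, where Phlda2 (-2.48 ± 0.31, adjusted p = 0.00157; without replicate 2 -2.78, adjusted p = 0.000164) and Peg3 missed the threshold only with the libraries of those 2 groups alone in the fit (adjusted p = 0.0604 and 0.0515). Phlda2 was lower in L3mbtl2 than in Pcgf6 knockout cells by -2.53 ± 0.34 (adjusted p = 0.00154), Meg3 by -1.22 ± 0.20 (adjusted p = 0.0034) and Gab1 by -1.76 ± 0.30 (adjusted p = 0.00419).

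A further list held 40 names of imprinted genes. Phf17, an older name of the member Jade1, was among the names not found in the tables. In all, 37 names were found and 27 of these genes were tested. In Mga knockout cells 9 were higher and 4 lower, in L3mbtl2 knockout cells 5 and 2, and in Pcgf6 knockout cells 3 and 0, with medians of 0.08, 0.20 and 0.10. These are 48.1%, 25.9% and 11.1% of the 27, beside 39.5%, 40.0% and 10.1% of all tested genes. The Mga count of 13 fell to 8 without wild type replicate 2. The L3mbtl2 count of 7 was 2 without L3mbtl2 knockout replicate 1 and 14 without Mga knockout replicate 1, and the Pcgf6 count of 3 fell to at most 1 without any single wild type, L3mbtl2 knockout or Pcgf6 knockout library. Cobl, an actin nucleator gene next to Grb10, was higher in all 3, at 8.25 ± 0.339 FPKM in wild type against 30.3 ± 11.2 in Mga (1.80, adjusted p = 0.000463), 26.7 ± 0.482 in L3mbtl2 (1.68, adjusted p = 0.00106) and 15.7 ± 0.388 in Pcgf6 knockout cells (0.93, adjusted p = 0.0436). The Pcgf6 call of Cobl was lost in 13 of 21 alternatives, among them without any single wild type (adjusted p = 0.111 to 0.125), L3mbtl2 knockout (0.0803 and 0.0804) or Pcgf6 knockout library (0.212 and 0.24). Smoc1, a matricellular protein gene, was lower by -2.64 in Mga (adjusted p = 0.000586) and -1.63 in L3mbtl2 knockout cells (adjusted p = 0.00844; 0.0658 without L3mbtl2 knockout replicate 1). Dhcr7, the last enzyme of cholesterol synthesis, fell from 34.3 FPKM in wild type to 9.72 in L3mbtl2 knockout cells (-1.81, adjusted p = 0.000629). It was also lower in Mga knockout cells, by -0.96 (adjusted p = 0.0068), and by -1.09 without replicate 2 (adjusted p = 0.00322). Tfpi2, a protease inhibitor gene beside Peg10, fell from 4.51 to 0.566 FPKM in Mga knockout cells (-3.14, adjusted p = 0.00166). With the library labelled Mga knockout replicate 2 left out, the Mga knockout changes were 1.53 for Cobl (adjusted p = 3.11e-05), -2.19 for Smoc1 (adjusted p = 7.45e-06) and -2.72 for Tfpi2 (adjusted p = 0.00182).

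Genes that set or keep imprints were examined as a further list of 26, all tested. In Mga knockout cells 6 were higher and 5 lower, in L3mbtl2 knockout cells 8 and 5, and in Pcgf6 knockout cells 1 and 2, with medians of 0.09, 0.12 and 0.09. These are 42.3%, 50% and 11.5% of the 26, beside the same shares of all tested genes, 39.5%, 40.0% and 10.1%. The Mga count of 11 was 17 without Mga knockout replicate 1, and the L3mbtl2 count of 13 was 7 or 8 without either L3mbtl2 knockout library. The Pcgf6 count of 3 fell to at most 1 without any single wild type or Pcgf6 knockout library and rose to 10 when the library labelled Mga knockout replicate 2 was left out. Zfp57, whose zinc finger protein guards methylated imprinting control regions, was higher in all 3 knockouts. It stood at 61.7, 61.3 and 61.3 FPKM in wild type, 106, 157 and 95.2 in Mga, 187 and 180 in L3mbtl2, and 118 and 122 in Pcgf6 knockout libraries, with no overlap with wild type. The change was 0.92 (adjusted p = 0.00256), 1.58 (adjusted p = 0.000378) and 0.96 (adjusted p = 0.0128). The Pcgf6 call of Zfp57 was lost without wild type replicate 1 (adjusted p = 0.0501) or 2 (0.0522) or Pcgf6 knockout replicate 1 (0.106) or 2 (0.122).

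Dnmt3b, a de novo DNA methyltransferase gene, was lower in Mga (-0.77, adjusted p = 0.000519) and L3mbtl2 knockout cells (-0.95, adjusted p = 0.000357). Hells, a chromatin remodeller gene needed for DNA methylation, was higher in both, by 0.64 (adjusted p = 0.000878) and 0.92 (adjusted p = 0.000301). Ehmt1, a subunit gene of the H3K9 methyltransferase that shares the PRC1.6 complex, was lower in Mga knockout cells by -0.58 (adjusted p = 0.00136). Its partner Ehmt2 was lower in L3mbtl2 knockout cells by -1.67 (adjusted p = 0.000659). Ehmt2 was also lower in Mga knockout cells, by -1.17 (adjusted p = 3.4e-05), with the library labelled replicate 2 left out. Ctcfl, a germ cell relative of the boundary factor CTCF, had a wild type mean of 0.0804 FPKM and stood at 11.9, 1.68 and 31.6 in Mga knockout libraries, a fitted change of 5.61 (adjusted p = 0.00144), and at 5.28 in L3mbtl2 knockout cells (4.90, adjusted p = 0.00428). Both Ctcfl calls were lost with limma-voom on recovered reads (adjusted p = 0.064 and 0.1). With the library labelled Mga knockout replicate 2 left out, the Mga knockout changes were 0.71 for Zfp57 (adjusted p = 5.09e-05), -0.86 for Dnmt3b (adjusted p = 4.85e-05), 0.58 for Hells (adjusted p = 0.000553), -0.64 for Ehmt1 (adjusted p = 0.000236) and 6.76 for Ctcfl (adjusted p = 7.72e-06).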

How the data were processed

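Per the labels' protocols, Trizol was used for extraction and the library kit does not mark strand. The authors deposited 1 table of FPKM per library; per the submitters' processing notes, Bowtie2 2.2.3, TopHat2 2.0.12, HTSeq 0.6.0 and GRCm38 were used. That the unit is FPKM was read from the values: with exon lengths from GENCODE M21 they gave whole reads (tolerance 0.005 read) at 77.9% of genes above 0, with a length found from the values at a further 20.5%, and with none at 1.69%. Symbols were found for 30250 genes and not for 210.

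The test was limma 3.58.1 (R 4.3.3), empirical Bayes with trend, on log2(FPKM + 0.1) for genes that reached 0.5 FPKM in 2 or more libraries. A single fit held the 10 libraries, with no term but group. P-values were adjusted by Benjamini-Hochberg across 15731 genes, with a threshold of 0.05. The fit was tested on simulated data in which all groups shared the same spread for each gene. The wider spread of the Mga knockout libraries was therefore not covered. Alternatives were other pseudocounts, filters and scalings, limma-voom on recovered reads, groups fitted alone, a weight per group, a replicate block, chromosome centring and each library left out.

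The members and lists were chosen with earlier results of these data known. Library values are given for members that passed against wild type, group means or ranges for tested members that did not, highest values for untested members, and up to 4 genes with the smallest p from each of 2 further lists, other imprinted genes and imprint maintenance. Marker lists of pluripotent, trophoblast, endoderm, fibroblast, macrophage, mesoderm and neuroectoderm cells were summed per library. Groups and replicate numbers come from the labels.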

Additional observations from a re-analysis of the deposited data

How the results depend on the processing

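Each result was recomputed under 21 alternatives, and over the members' 6 comparisons 4298 values kept their direction and side of the threshold, 267 lost a call, 202 gained 1 and 3 called values changed sign. The members whose calls held in every alternative were 8 in Mga (Igf2, Phlda2, Cd81, Peg3, Snrpn, Nnat, Sfmbt2 and Jade1), 7 in L3mbtl2 (Igf2, Phlda2, Slc22a18, Peg3, Nnat, Sfmbt2 and Gab1) and 1 in Pcgf6 knockout cells (Sfmbt2). Fitting only the libraries of the groups compared gave 31 called members in L3mbtl2 and 25 in Pcgf6 knockout cells against wild type, 2 between Mga and L3mbtl2, 0 between Mga and Pcgf6 and 28 between L3mbtl2 and Pcgf6 knockout cells, in fits that called 67.3%, 43.7%, 3.77%, 1.26% and 61.5% of all tested genes. For that count of 0 by limma, 11 members had an unadjusted p under 0.05, while limma on all libraries called 11 members and limma with a weight per group called 7. A weight per group lets the Mga knockout libraries vary more than the rest. It gave 32 called members in L3mbtl2 and 23 in Pcgf6 knockout cells against wild type, and 30 between L3mbtl2 and Pcgf6 knockout cells. Of all tested genes it called 70.6%, 47.7% and 66.3% in the same comparisons. In Mga knockout cells against wild type it called 10 members and 23.6% of all tested genes. The replicate block gave 4 called members in Pcgf6 knockout cells against wild type and 6 between Mga and Pcgf6 knockout cells, and moved no other member count by over 1.5 times. It called 6.31% and 15.2% of all tested genes in these 2 comparisons. Libraries with the same number shared only that number: their deviations correlated at -0.02 to 0.03.

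Leaving out each library in turn gave 10 to 23 called members in Mga, 7 to 26 in L3mbtl2 and 1 to 15 in Pcgf6 knockout cells against wild type, 3 to 16 between Mga and L3mbtl2, 3 to 22 between Mga and Pcgf6 and 6 to 22 between L3mbtl2 and Pcgf6 knockout cells. The highest count was in each case that without the library labelled Mga knockout replicate 2, and a group left with 1 library is assumed to vary like the others. Outside Mga knockout against wild type, the lowest counts came from fits with such a group. The share of all tested genes called fell there as well. Over the same fits Dlk1 in Mga knockout cells against wild type ranged from -0.61 to 0.53, and against Pcgf6 knockout cells H19 ranged from -0.73 to 0.77 and Slc38a4 from -0.64 to 0.61, each highest without that library. Among the other lists, Dcn ranged from -0.66 to 0.47 and Dnmt1 from -0.18 to 0.19 in Mga knockout cells against wild type, with the lowest value of Dcn and the highest of Dnmt1 without Mga knockout replicate 1. With a weight per group, 19 of the other imprinted genes and 25 of the imprint maintenance genes passed in L3mbtl2 knockout cells, and 14 and 15 in Pcgf6 knockout cells. Scaling by median of ratios moved the median of all genes from 0.10, 0.13 and 0.04 to 0.03, 0.04 and 0.01 in Mga, L3mbtl2 and Pcgf6 knockout cells. Depth limits the 7 members under the filter, for which no test was made.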
